A study of Mus musculus with 18 samples.

Results

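The genes described here encode the proteins of the mitochondrial ribosome, the particle that translates the few messages of the mitochondrial genome. Members were chosen by symbol alone: every row whose symbol begins with Mrpl or Mrps and a number, and holds no hyphen. The rule found 78 genes in each of the 3 tables, out of 17759 genes listed for crypts, 17423 for day 1 and 17612 for day 3. All 78 passed the filter on low values, a mean normalized count of at least 10.

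RNA was sequenced from duodenal crypts, and from enteroids grown from them for 24 h (day 1) and 72 h (day 3), of 3 wild-type (WT) mice and 3 mice labelled Mtgr1-/-, a deletion carried in every tissue. The mice were littermates of both sexes, adult and 8 to 12 weeks old, and each gave 1 library per time point, so that 18 libraries fell into 6 groups of 3. Enteroids are self-organizing cultures of intestinal epithelium, kept here in Matrigel with EGF, Noggin and R-spondin in both genotypes. Mtgr1 (official symbol Cbfa2t2) encodes a transcriptional co-repressor, and the comparison asks what its loss does to crypts and to the cultures that grow from them. Each library held between 22035316 and 29661084 reads assigned to genes, and the members, whose average levels ran from 17.8 (Mrpl23) to 175 (Mrpl12) CPM, reads scaled to a fixed library total, were all above the filter by a wide margin.

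Cbfa2t2 itself was not lower in the libraries labelled Mtgr1-/-. At day 1 it lay between 710 and 788 normalized counts in WT and between 789 and 1160 in the libraries labelled Mtgr1-/-, and its count over the whole gene cannot show which exons were read. Olfm4, a stem cell gene, lay between 17576 and 43254 in WT at day 1 and between 7.0 and 10.4 in the libraries labelled Mtgr1-/-. Markers of intestinal epithelium were abundant in every library, with a summed level of 116544 or more. Of 7 stromal markers listed for crypts 1 reached a mean of 10. The summed immune markers lay between 1366 and 11752 in WT crypts and between 735 and 1523 in crypts labelled Mtgr1-/-, and their part in the crypt results was not tested.

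The mitochondrial ribosome has a small subunit, which reads the message and carries Mrps proteins, and a large subunit, which joins amino acids and carries mostly Mrpl proteins. Its RNAs come from the mitochondrial genome, whereas all its proteins are encoded in the nucleus, made in the cytosol and imported. The messages it translates encode core subunits of the respiratory chain and of ATP synthase. Part of its proteins have counterparts in bacteria, and the rest are found in mitochondria alone. Intestinal crypts hold dividing stem and progenitor cells, and cells that leave the crypt stop dividing and mature, many of them into absorptive enterocytes.

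Of the 78 members, 51 belong to the large subunit (30 with a bacterial counterpart and 21 without) and 26 to the small subunit (16 and 10). The remaining member, Mrps36, carries the symbol but is now known as a subunit of the 2-oxoglutarate dehydrogenase complex of the citric acid cycle. Promoters of members that carried the day 1 result are shown here so that the regions can be compared directly. They were picked after the values were seen. Sequences are from RefSeq promoters on GRCm38.p6, read 5′ to 3′ along the gene's strand, and stop where an annotated exon begins. Capitals mark matches to the searched letters, which are GGGCGG or CCGCCC (the SP1 box) and CCGGAAG or CTTCCGG (the ETS box bound by GABP).
Mrps27, chr13:99344706-99344785, plus strand, 80 bases: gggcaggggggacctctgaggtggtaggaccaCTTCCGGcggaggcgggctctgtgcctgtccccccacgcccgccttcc
Mrps9, chr1:42851083-42851232, plus strand, 150 bases: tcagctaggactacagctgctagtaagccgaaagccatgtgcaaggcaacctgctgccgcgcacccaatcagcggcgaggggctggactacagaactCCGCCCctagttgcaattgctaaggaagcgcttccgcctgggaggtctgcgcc
Mrpl3, chr9:105053089-105053238, plus strand, 150 bases: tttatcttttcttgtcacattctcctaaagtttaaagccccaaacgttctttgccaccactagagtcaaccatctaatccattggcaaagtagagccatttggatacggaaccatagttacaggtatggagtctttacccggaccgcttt
Mrps36, chr13:100744660-100744809, minus strand, 150 bases: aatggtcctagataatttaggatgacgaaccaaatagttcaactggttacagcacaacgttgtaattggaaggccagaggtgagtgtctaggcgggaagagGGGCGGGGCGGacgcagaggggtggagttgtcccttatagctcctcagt
Mrpl55, chr11:59202386-59202485, plus strand, 100 bases: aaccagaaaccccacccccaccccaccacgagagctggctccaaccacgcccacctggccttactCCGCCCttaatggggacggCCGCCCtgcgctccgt

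Mrps27, Mrps9 and Mrpl3 fell at day 1 and Mrps36 and Mrpl55 rose, as given below with their values. No stretch printed holds the NRF1 letters, and the Mrpl3 stretch ends 29 bases before the RefSeq start and holds no match to any motif. The whole 300-base window of Mrpl3 does hold the ETS letters, outside the stretch printed. Over the whole 300-base windows, 69 of the 78 members had a promoter entry. Of these, 25 (36.2%) held the ETS letters, against 17.7% of 10691 tested genes with an entry and 9.12% of all 27025 promoters. The NRF1 letters GCATGCGC or GCGCATGC were in 8 members (11.6%), against 5.15% of tested genes and 2.80% of all promoters. The YY1 letters ATGGCGG or CCGCCAT were in 13 members (18.8%), against 7.97% and 4.19%. The SP1 box was in 34 members (49.3%), below the 62.2% of tested genes and above the 35.9% of all promoters. The E-box CACGTG was in 5 members (7.25%) and TATAAA or its reverse TTTATA in 4 (5.80%), against 9.90% and 8.02% of tested genes and 7.24% and 14.2% of all promoters. None of these sets of letters contains another whole, though neighbouring matches can share bases. Of the 31 members with an entry that fell at day 1, 8 held the ETS letters, 6 the NRF1 letters and 9 the YY1 letters, against 17, 2 and 4 of the 38 others, a description without a test.

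In crypts, no member was called between genotypes (limma on log2 values, Benjamini-Hochberg adjustment over 12980 genes). Beside the 0 members called lower and 0 called higher stand 3.15% and 1.58% of all genes tested. At an unadjusted p below 0.05, 1 member was lower and 2 were higher, and edgeR and DESeq2 on recovered reads each called 0. The median log2 fold change of the members was 0.09, against 0.01 over all genes, with 65 members above 0 and 13 below it. Single members lay between -0.21 and 0.37. The values of 64 members overlapped between the genotypes. Of the rest, 13 lay higher and 1 lower in every library labelled Mtgr1-/-, beside 12.0% and 13.5% of all genes tested.

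**Figure D1:**
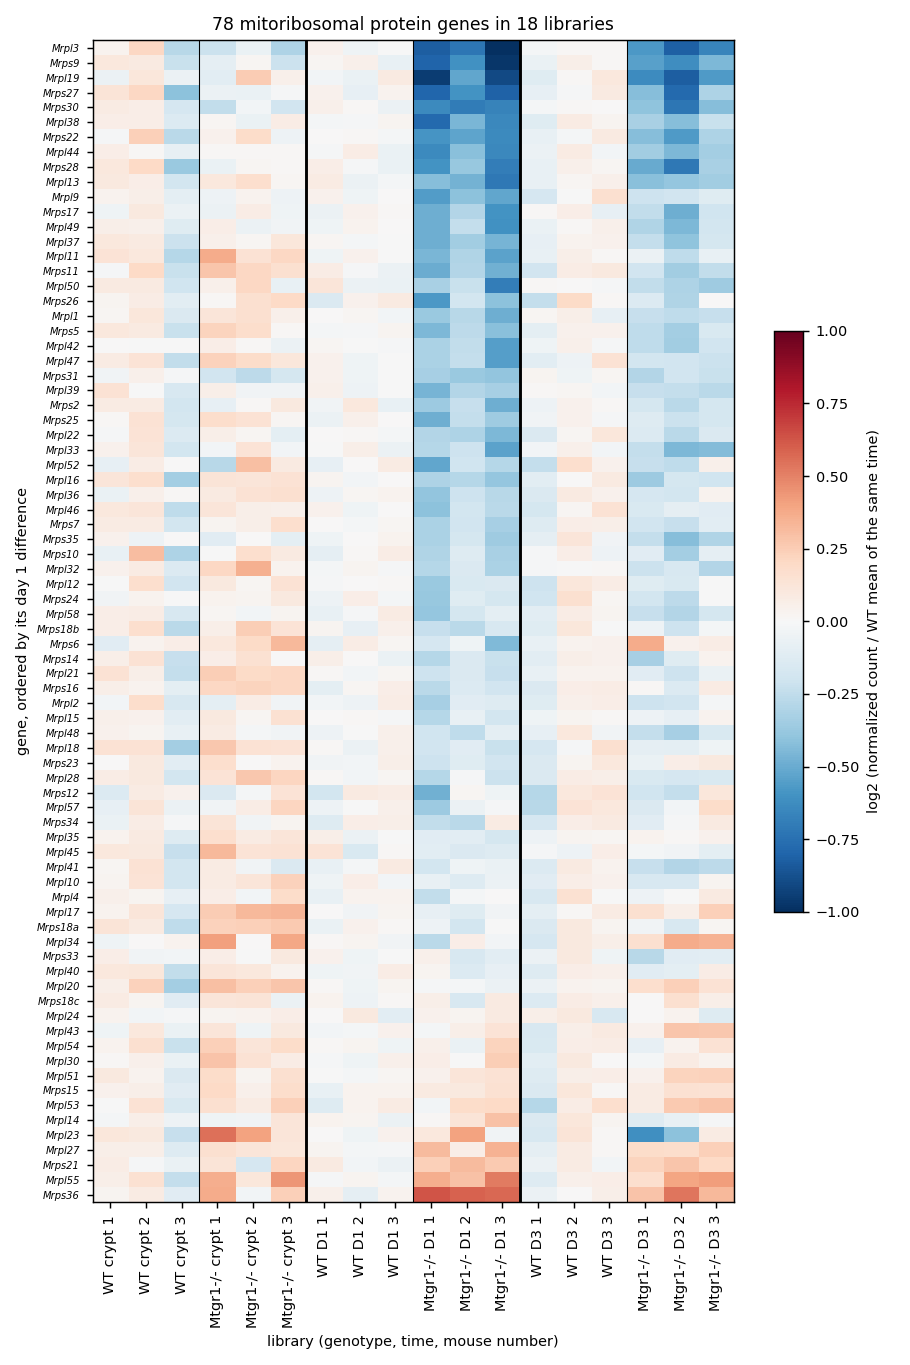
Each cell shows the log2 ratio of a library's normalized count to the WT mean of the same time point, for the 78 members (rows, ordered by their day 1 difference) and the 18 libraries (columns, by time, genotype and mouse number). Blue rows fill the upper part of the 3 day 1 libraries labelled Mtgr1-/- and are paler in their day 3 libraries, whereas the crypt columns show no such block.

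After 1 day in culture many members differed between genotypes. Of the 78, 36 were lower in the libraries labelled Mtgr1-/- and 3 were higher (adjusted p below 0.05, limma), while 39 were not called. Among all 12587 genes tested, 28.9% were lower and 30.0% higher. The median of the members was -0.22 on the log2 scale against -0.01 over all genes, and 65 of the 78 values were below 0. The values of 51 members did not overlap and were lower in the libraries labelled Mtgr1-/-, as for 33.9% of all genes tested. Under the deposited scaling, median-ratio rescaling and a common total per library, the members' median lay 0.21 below that of all genes, but the last setting moves every gene down by a median of 0.33, giving 64 lower and 1 higher, beside 44.5% and 17.4% of all genes.

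Mrpl3, a large subunit protein near the site where peptide bonds form, fell most at day 1. The gene (ENSMUSG00000032563.16) lies on the plus strand of chromosome 9, from 105053239 to 105079888 (GRCm38). The 3 WT libraries had 1643, 1551 and 1594 normalized counts and those labelled Mtgr1-/- 901, 966 and 742. The groups were far apart, with a log2 fold change of -0.88 ± 0.11 (SE, adjusted p = 6e-04, limma), or 0.542 of the WT level. In crypts of the same mice Mrpl3 had 1074, 1211 and 867 counts in WT and 904, 1003 and 849 in those labelled Mtgr1-/-, which overlap (-0.18 ± 0.14, adjusted p = 0.552, limma).

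Mrps9 is a small subunit protein with a bacterial counterpart (ENSMUSG00000060679.14, chromosome 1, 42851233 to 42905683, plus strand). It had 1326, 1354 and 1241 counts in WT and 750, 859 and 666 in the day 1 libraries labelled Mtgr1-/-. All 3 of the latter were below every WT library (-0.79 ± 0.11, adjusted p = 8.9e-04, limma). Mrpl19, of the large subunit (ENSMUSG00000030045.10, chromosome 6, 81957851 to 81965958, minus strand), had 1352, 1319 and 1469 counts in WT and 716, 961 and 740 in the libraries labelled Mtgr1-/-. Mouse 2 was again the highest of those, yet the groups stayed apart (-0.79 ± 0.13, adjusted p = 0.00153, limma).

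Mrps27, a small subunit protein found in mitochondria alone, carries the ETS letters in the stretch printed above (ENSMUSG00000041632.7, chromosome 13, 99344786 to 99415562, plus strand). WT libraries held 1749, 1612 and 1745 counts, those labelled Mtgr1-/- 981, 1122 and 971. The lowest WT library was above the highest of the other group (-0.73 ± 0.09, adjusted p = 5.83e-04, limma). Mrps30, which despite its symbol sits in the large subunit (ENSMUSG00000021731.10, chromosome 13, 118378381 to 118387252, minus strand), had 1250, 1217 and 1158 against 778, 744 and 759 counts. The spread within each group was small beside the gap (-0.67 ± 0.08, adjusted p = 5.48e-04, limma).

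The other direction held 3 members at day 1. Mrps36, the citric acid cycle subunit named above (ENSMUSG00000061474.11, chromosome 13, 100735955 to 100744659, minus strand), had 941, 856 and 929 counts in WT and 1404, 1368 and 1351 in the libraries labelled Mtgr1-/-. It rose by 0.60 ± 0.08 on the log2 scale (adjusted p = 8.12e-04, limma), to 1.51 times the WT level. The annotation holds 3 pseudogenes named after Mrps36, none of them listed in the tables, so how reads were shared with them cannot be seen. Leaving Mrps36 out, 36 of the 77 mitoribosome genes were lower and 2 higher.

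Mrpl55, of the large subunit (ENSMUSG00000036860.14, chromosome 11, 59202486 to 59206134, plus strand), had 613, 629 and 609 counts in WT and 794, 757 and 887 in the libraries labelled Mtgr1-/- at day 1. The WT libraries lay within a narrow range and all the others above it (0.39 ± 0.10, adjusted p = 0.00946, limma), a difference of 0.07 and not called on a common total. Mrps21, a small subunit protein (ENSMUSG00000054312.6, chromosome 3, 95862634 to 95871519, minus strand), had 1090, 1005 and 986 against 1209, 1281 and 1231 counts. Its rise of 0.27 ± 0.08 (adjusted p = 0.0237, limma) turned to -0.05 on a common total, where it was not called, and the call was also lost without WT library 2 or 3 or without library 1 labelled Mtgr1-/-.

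**Figure D2:**
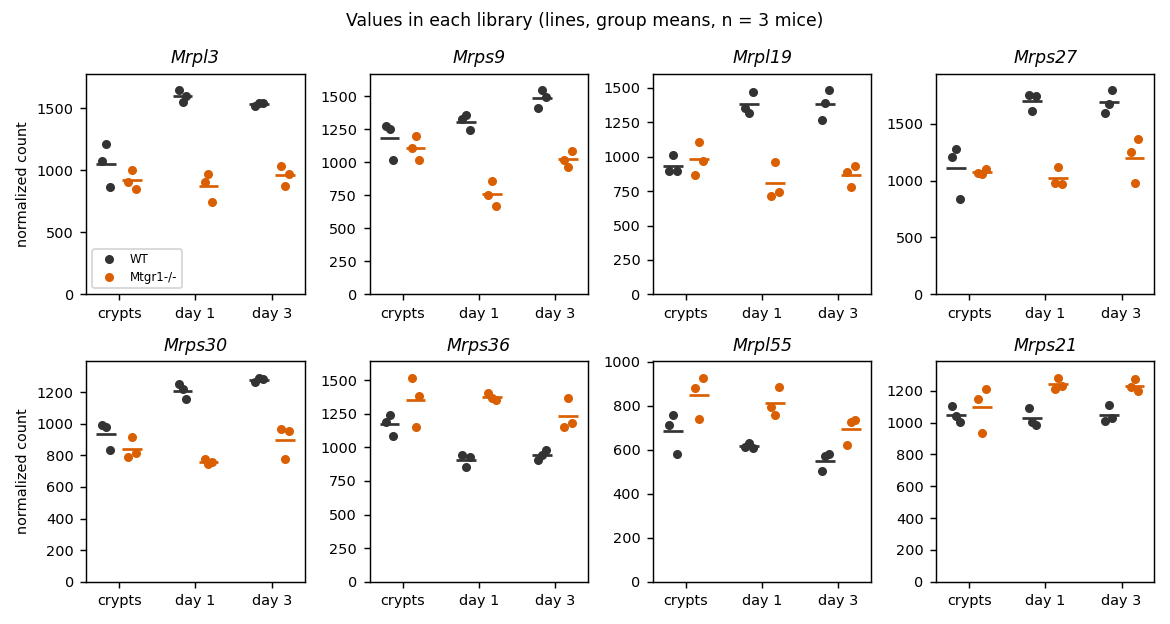
Normalized counts (vertical axis, from 0) of 8 members in each library at the 3 time points, for WT (dark grey) and the libraries labelled Mtgr1-/- (orange), with the mean of 3 mice as a line. Mrpl3, Mrps9, Mrpl19, Mrps27 and Mrps30 overlap between genotypes in crypts and separate at day 1 and day 3, while Mrps36, Mrpl55 and Mrps21 separate in the other direction.

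At day 3, 26 members (33.3%) were lower and 4 (5.13%) higher, against 29.1% and 29.9% of the 12782 genes tested, so that the share lower was near that of all genes. The members' median was -0.14 against 0.00 over all genes, with 59 of 78 values below 0. Lower values without overlap were found for 33 members, as for 34.2% of all genes tested. A common total gave 50 lower and 0 higher, beside 39.8% and 21.5% of all genes, with all genes moved by a median of -0.20, and leaves the members' median 0.14 below that of all genes. The count also rested on WT libraries, since it was 12 without WT mouse 2 and 13 without WT mouse 3. Of all genes, 22.6% and 22.8% were lower in those settings. With the mouse number as a replicate block the count was 20, beside 27.9% of all genes. Without WT mouse 2, without WT mouse 3 and with the block, the members' share was below that of all genes. Without WT mouse 1 the count was 19, beside 23.8% of all genes.

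Of the 36 members lower at day 1, 24 were also lower at day 3 (66.7% of the day 1 list and 92.3% of the day 3 list). Over all genes tested, 2977 were lower at both days, 81.9% of those lower at day 1 and 80.0% of those lower at day 3. These lists come from separate libraries of the same mice. Mrpl41 and Mrpl48, both of the large subunit, were called at day 3 and not at day 1, and the genotype difference at day 3 against day 1 was not called for either (adjusted p = 0.956 and 0.901, limma).

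Mrpl3 was again lowest at day 3, with 1515, 1543 and 1543 counts in WT and 1031, 873 and 970 in the libraries labelled Mtgr1-/- (-0.68 ± 0.09, adjusted p = 3.96e-04, limma). Mrpl19 had 1270, 1389 and 1482 against 892, 781 and 932 counts (-0.67 ± 0.10, adjusted p = 8.91e-04, limma). Both pairs of groups were apart. Mrps27 had 1589, 1675 and 1792 WT counts against 1252, 982 and 1362, also without overlap (-0.50 ± 0.13, adjusted p = 0.00937, limma).

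Mrps9 had 1413, 1543 and 1491 counts in WT and 1015, 964 and 1085 in the other group at day 3 (-0.54 ± 0.08, adjusted p = 9.8e-04, limma). Mrps30 had 1263, 1291 and 1281 against 967, 774 and 951 (-0.52 ± 0.10, adjusted p = 0.00323, limma). Mouse 2 of the libraries labelled Mtgr1-/- was the lowest for each of Mrpl3, Mrpl19, Mrps9 and Mrps30 at day 3, whereas at day 1 mouse 2 was the highest for Mrpl3, Mrpl19 and Mrps9.

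Mrps36 stayed higher at day 3, with 903, 945 and 981 counts in WT and 1150, 1367 and 1181 in the libraries labelled Mtgr1-/- (0.38 ± 0.09, adjusted p = 0.00828, limma). Mrpl55 had 505, 571 and 579 against 621, 726 and 738 counts (0.33 ± 0.11, adjusted p = 0.0281, limma). Neither gene's groups overlapped, and neither was called on a common total, where the differences were 0.18 and 0.13. The Mrpl55 call at day 3 was also lost when any of 5 libraries was left out.

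Mrpl34, a large subunit protein, was called higher at day 3 (826, 990 and 962 against 1034, 1198 and 1179 counts, 0.30 ± 0.10, adjusted p = 0.0367, limma), and at day 1 it was at -0.08 ± 0.11. Mrps21 had 1007, 1111 and 1026 against 1221, 1273 and 1200 counts (0.23 ± 0.08, adjusted p = 0.0332, limma). Both calls were lost on a common total, where Mrpl34 was at 0.10 and Mrps21 at 0.03, and when single libraries were left out, Mrps21 lost its call for any of 5 and Mrpl34 for any of 4.

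**Figure D3:**
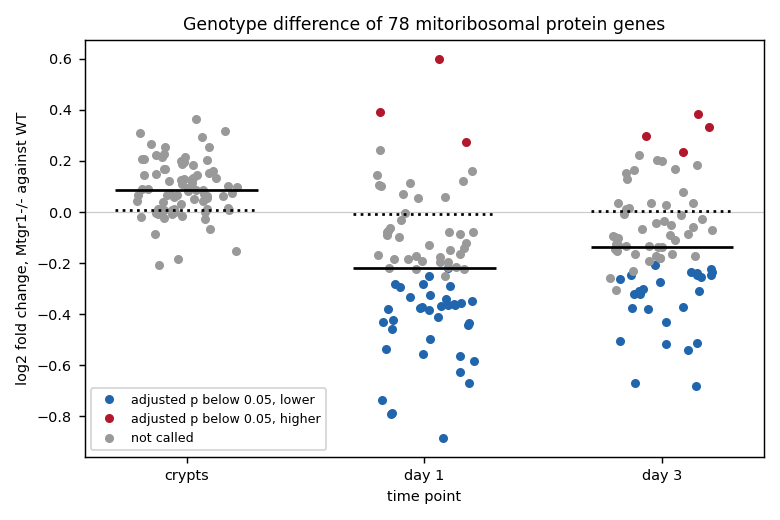
Log2 fold change of each member, Mtgr1-/- against WT, at the 3 time points, coloured by the call (adjusted p below 0.05). Solid lines are the medians of the members (0.09, -0.22 and -0.14) and dotted lines those of all genes tested, which lie near 0, and the called members at day 1 and day 3 are mostly below 0.

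The members called were also counted by subunit and by bacterial counterpart. At day 1, 12 of 30 large subunit genes with a bacterial counterpart were lower and 1 higher (median -0.19), and 10 of 21 large subunit genes found in mitochondria alone were lower and 0 higher (median -0.22). In the small subunit 7 of 16 genes with a counterpart were lower and 1 higher (median -0.24), and 7 of 10 without one were lower and 0 higher (median -0.32). The shares lower were 40.0%, 47.6%, 43.8% and 70.0%, beside 28.9% of all genes tested. At day 3 the same classes had 7 lower and 2 higher, 10 and 0, 5 and 1, and 4 and 0. The shares lower were then 23.3%, 47.6%, 31.2% and 40.0%, of which those of the classes with a bacterial counterpart were below or near the share of all genes. Differences between classes were not tested.

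Mrps18a, Mrps18b and Mrps18c are paralogs of each other, and no search for other such families among the members was made. Mrps18b, of the small subunit, had 2164, 2002 and 2199 counts in WT and 1806, 1763 and 1903 in the libraries labelled Mtgr1-/- at day 1, lower without overlap (-0.22 ± 0.08, adjusted p = 0.0465, limma), a call lost when any of 5 libraries was left out. Mrps18a, of the large subunit, had 937, 1010 and 987 against 946, 861 and 976 counts (-0.08 ± 0.09, adjusted p = 0.483, limma). Mrps18c, of the small subunit, had 847, 795 and 832 against 861, 737 and 879 counts (0.00 in size, SE 0.10, adjusted p = 0.986, limma).

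Whether the 3 paralogs differ from each other was not tested. At day 3 none of them was called, with differences of -0.06, -0.09 and 0.08 for Mrps18a, Mrps18b and Mrps18c, and in crypts they were at 0.26, 0.16 and 0.06. On a common total Mrps18a and Mrps18c were called lower at day 1, at -0.40 and -0.32, and Mrps18b at day 3, at -0.29.

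Per length, as CPM per kb of the principal transcript, Mrpl12 was the highest member. It forms the stalk of the large subunit that binds translation factors, and had 158 ± 7.61 (SD, n = 3) in WT at day 1 and 109 ± 15.7 in the libraries labelled Mtgr1-/-. Mrpl42, of the large subunit, had 148 ± 4.82 and 92.6 ± 16.1 on the same scale, and Mrps21 88.3 ± 2.47 and 85.8 ± 9.53. Averaged over the 18 libraries, these levels were 133, 122 and 88.3, and the lowest member, Mrps25, had 5.12. On normalized counts Mrpl42 was lower at day 1 (-0.37 ± 0.10, adjusted p = 0.0117, limma) and Mrpl12 was not called (-0.22 ± 0.09, adjusted p = 0.0586, limma).

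Among the members, those with a longer coding sequence had lower log2 fold changes at day 1. Spearman's rho with coding length over the 78 members was -0.52 at day 1, -0.48 at day 3 and -0.28 in crypts, as a description over genes that share all their libraries. Over 6375 genes tested at day 1 within the members' range of mean counts it was -0.06. With the length of the whole transcript, rho over the members was -0.44 at day 1 and -0.32 at day 3, and with its GC percentage 0.26 and 0.22.

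Split by coding length into groups of 26, the members of 65 to 159 codons had 6 genes lower and 3 higher at day 1 (median -0.07). Those of 160 to 251 codons had 11 lower and 0 higher (median -0.22), and those of 252 to 442 codons 19 lower and 0 higher (median -0.37). At day 3 the groups had 5, 6 and 15 genes lower and 4, 0 and 0 higher. Thus every member called higher at either day was in the shortest group, and Mrpl3 (348 codons), Mrps9 (390), Mrps27 (415) and Mrps30 (442) were in the longest. Of all genes tested, 28.9% were lower at day 1 and 29.1% at day 3. The shortest group lay below that share at both days, and the group of 160 to 251 codons lay below it at day 3.

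**Figure D4:**
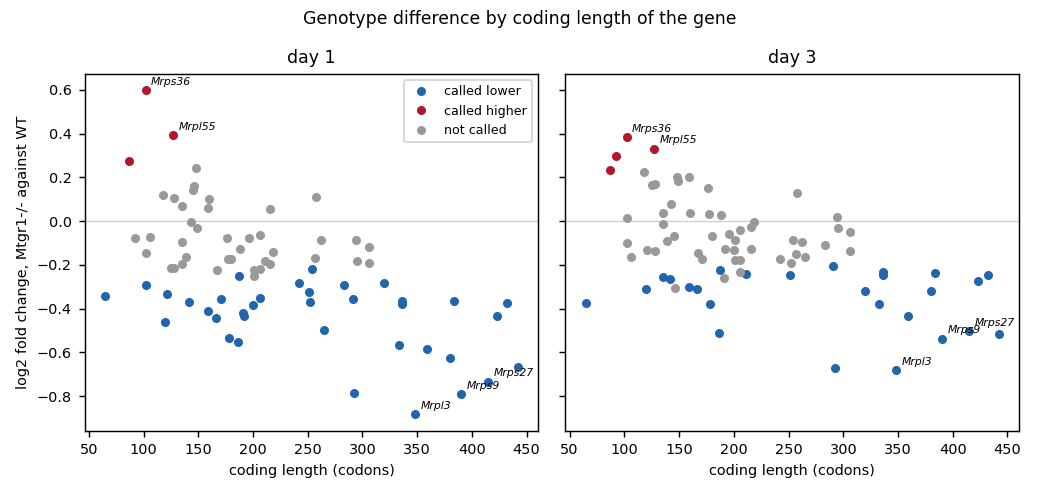
Log2 fold change of the 78 members, Mtgr1-/- against WT, against coding length in codons in 2 panels, day 1 on the left and day 3 beside it, coloured by the call. Points called higher lie at the short end and most points above 300 codons lie below 0, with rho of -0.52 and -0.48.

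Levels changed between crypts and day 1 in opposite directions in the genotypes. These comparisons set each library to a common total, since the tables were normalized separately, and kept the mouse as a random effect. In WT, 48 members were higher at day 1 than in crypts and 1 was lower, against 38.5% and 17.8% of all 12953 genes tested. The members' median was 0.36 and that of all genes 0.22, and with median-ratio rescaling, which takes the latter to -0.04, 24 members were higher and 6 lower, beside 25.9% and 28.9% of all genes.

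Mrps18b rose most in WT, by 0.86 ± 0.12 (adjusted p = 3.42e-05, limma), from 1314, 1412 and 1045 normalized counts in crypts to the day 1 values given above, each on its own table's scale. Mrps10, of the small subunit, rose by 0.79 ± 0.16 (adjusted p = 5.66e-04, limma), from 585, 761 and 497 to 925, 989 and 1031 counts. Mrps36 was the member called lower in WT, from 1191, 1238 and 1083 counts in crypts to the day 1 values above (-0.27 ± 0.10, adjusted p = 0.0289, limma), a call lost without any of WT crypt libraries 1 and 2 and WT day 1 libraries 1 and 2.

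In the mice labelled Mtgr1-/-, 40 members were lower at day 1 than in crypts and 0 higher, against 22.8% and 13.1% of all genes. The members' median was -0.31 and that of all genes -0.16. Mrps9 fell most, from 1109, 1198 and 1018 counts in crypts to 750, 859 and 666 (-0.81 ± 0.14, adjusted p = 4.5e-04, limma). Mrpl34 fell from 1276, 963 and 1261 to 777, 981 and 918 counts (-0.64 ± 0.12, adjusted p = 8.55e-04, limma), with mouse 2 about level on the scales of the separate tables. The count was 23 without crypt library 1 or 2 of these mice, beside 16.19% and 16.55% of all genes. It was 19 without their day 1 library 1, beside 14.55%, and 16 without their day 1 library 3, beside 15.37%.

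The difference between genotypes itself changed from crypts to day 1 for 68 members, all of them lower at day 1, and for 0 in the other direction, against 34.4% and 9.40% of all genes. The median was -0.71 over the members and -0.32 over all genes. On the deposited scaling, an alternative added after the data were seen, the counts were 39 and 1, beside 20.04% and 19.4% of all genes, with a median of 0.02 over all genes. On the common total Mrpl19 had the largest change, -1.21 ± 0.22 (adjusted p = 0.00169, limma). It was followed by Mrps27 with -1.07 ± 0.24 (adjusted p = 0.00298, limma) and Mrps9 with -1.06 ± 0.20 (adjusted p = 0.00197, limma). All genes had a median of -0.32 on that total, and the sizes for these genes on the deposited scaling are not given here.

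Mrpl19 had 893, 1010 and 893 counts in WT crypts and 866, 1109 and 968 in those labelled Mtgr1-/-, which overlap. Mrps27 had 1209, 1278 and 833 against 1064, 1060 and 1099 counts in crypts, and Mrps9 1273, 1254 and 1014 against 1109, 1198 and 1018. For these 3 genes the gap between genotypes at day 1 thus exceeded that in the tissue the cultures came from, by the test of the difference on a common total.

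From day 1 to day 3 few members were called. In WT 0 members were called in each direction by limma (2 lower and 1 higher at an unadjusted p below 0.05), beside 4.0% of genes lower and 2.60% higher. In the mice labelled Mtgr1-/- 7 members were higher and 0 lower, beside 12.0% and 3.10%, with a median of 0.21 over the members and 0.21 over all genes. The 7 were Mrpl34, Mrpl38, Mrpl44, Mrpl9, Mrps2, Mrps31 and Mrps9, named because they are few.

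Mrpl38, of the large subunit, rose by 0.57 ± 0.12 (adjusted p = 0.0118, limma), from 1016, 1269 and 1115 to 1547, 1441 and 1657 counts, and Mrps9 by 0.55 ± 0.14 (adjusted p = 0.0245, limma). The 7 calls became 0 without library 1 or 3 of these mice at day 1 or at day 3, and 30 and 39 without library 2 at day 1 and day 3. Without library 2, 28.6% and 35.4% of all genes were higher. The genotype difference at day 3 against that at day 1 was called for 0 members by limma (0 lower and 7 higher at an unadjusted p below 0.05), beside 0.00772% of genes lower and 0.170% higher.

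The rest of the machinery of mitochondrial gene expression was read from 7 lists. Beside their counts stand 28.9% lower and 30.0% higher of all genes tested at day 1, and 29.1% and 29.9% at day 3. Of 6 mitoribosome proteins with other symbols, 3 were lower at day 1 and 4 at day 3, with 0 higher. Ptcd3, of the small subunit, had 2638, 2657 and 2476 counts in WT and 1685, 1923 and 1438 in the libraries labelled Mtgr1-/- at day 1 (-0.63 ± 0.11, adjusted p = 0.00244, limma). Gadd45gip1, of the large subunit, and Chchd1, of the small, were at -0.49 and -0.40, and Dap3, of the small subunit, at -0.13 (adjusted p = 0.225, limma). Dap3 was called at day 3, at -0.33 ± 0.08 (adjusted p = 0.00684, limma).

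Mitochondrial tRNA synthetases, which load amino acids onto mitochondrial tRNAs, were lower in 12 of 17 cases at day 1 and in 14 at day 3, with 0 higher and medians of -0.54 and -0.40. Mars2 (methionine) had 1155, 1350 and 1075 counts in WT and 552, 671 and 356 in the libraries labelled Mtgr1-/- at day 1 (-1.22 ± 0.22, adjusted p = 0.00248, limma). Yars2 (tyrosine) was at -0.90 and Aars2 (alanine) at -0.65 on the same day, and both of their group ranges were apart. Lars2 (leucine) had a log2 fold change of -1.47 ± 0.18 at day 3 (adjusted p = 3.48e-04, limma), with 40352 counts on average in WT, where the other synthetases had a mean of at most 4200 in any group. Its 3 WT libraries at day 1 spread from 12643 to 67930.

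Of 17 translation factors and helpers, 9 were lower and 0 higher at day 1 and 7 were lower and 1 higher at day 3. The shares lower were 52.9% and 41.2%, above those of all genes. Tsfm, the mitochondrial elongation factor Ts, had 884, 953 and 841 against 449, 614 and 439 counts at day 1 (-0.85 ± 0.15, adjusted p = 0.00194, limma) and was at -0.55 at day 3. Mtrf1l, a release factor, was at -0.76 and -0.49, Qrsl1, a subunit of the amidotransferase that makes glutaminyl-tRNA, at -0.63 and -0.35, and Gatc, another subunit, at -0.35 and -0.38.

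Of 28 assembly factors, 8 were lower and 2 higher at day 1, and 9 and 1 at day 3. The shares lower, 28.6% and 32.1%, were near those of all genes. Gtpbp10, a GTPase needed to finish the large subunit, had 1068, 1041 and 1086 counts in WT and 588, 590 and 463 in the libraries labelled Mtgr1-/- at day 1 (-0.97 ± 0.12, adjusted p = 5.04e-04, limma). The rRNA methyltransferase Mrm3 was at -0.96 and Rcc1l, an assembly factor, at -0.92. At day 3 Gtpbp10 was at -0.89, the methyltransferase Mrm1 at -0.73 and Noa1, a GTPase, at -0.71.

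Of 10 genes for copying and transcribing mitochondrial DNA, 7 were lower and 2 higher at day 1, and 4 and 1 at day 3. Mgme1, an exonuclease that maintains the genome, had 348, 419 and 401 against 184, 181 and 178 counts at day 1 (-1.10 ± 0.13, adjusted p = 4.06e-04, limma). Mterf2, which binds mitochondrial DNA, was higher (0.97 ± 0.15, adjusted p = 0.00146, limma), and the helicase Twnk was at -0.82. Tfam, which packages mitochondrial DNA and starts its transcription, was at -0.77 at both days, and the single-strand binding protein Ssbp1 at -0.74 at day 3.

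The messages that the ribosome translates were read in the same libraries. Of the 13 proteins encoded in mitochondrial DNA, 0 were lower and 2 higher at day 1, and 0 and 4 at day 3, in libraries made from poly(A) RNA. The shares higher, 15.4% and 30.8%, were below and near the 30.0% and 29.9% of all genes tested. mt-Atp6, a subunit of ATP synthase, was at 0.80 ± 0.18 at day 1 (adjusted p = 0.00565, limma) and mt-Nd5, of complex I, at 0.64 ± 0.21 (adjusted p = 0.0313, limma). At day 3 mt-Nd3 was at 0.63, mt-Co2 at 0.58 and mt-Atp6 at 0.53. Scaling matters here, since at day 1 the list had 0 lower and 1 higher on a common total and 3 lower and 0 higher after quantile normalization.

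Among 9 regulators of mitochondrial genes, 4 were lower and 3 higher at each day. The shares were 44.4% lower and 33.3% higher, the latter near that of all genes. Pprc1, a coactivator of the PGC-1 family, had 2132, 2164 and 2230 counts in WT and 924, 1361 and 813 in the libraries labelled Mtgr1-/- at day 1 (-1.11 ± 0.18, adjusted p = 0.00143, limma). The growth regulator Myc was at -0.64 and the factor Nrf1, which binds the NRF1 letters, at -0.58 (adjusted p = 0.00203, limma). Esrra, a nuclear receptor for genes of energy metabolism, was at 0.76 at day 1 and 0.78 at day 3, and its coactivator Ppargc1b at 0.61 and 0.76. Gabpa, which binds the ETS letters, and Yy1 were not called, at -0.15 and -0.14 at day 1.

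**Figure D5:**
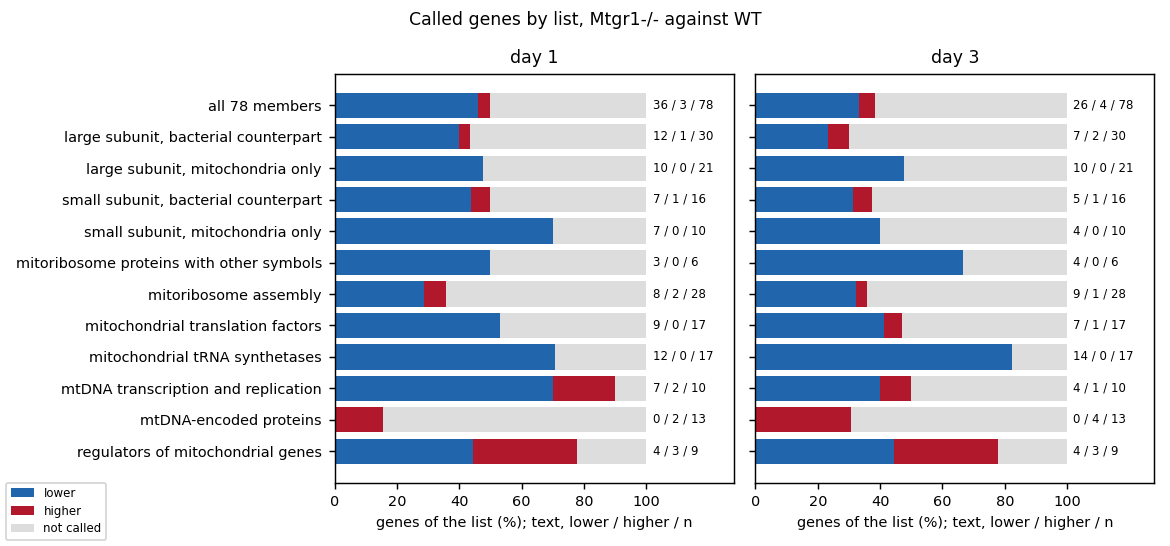
Share of each list (horizontal axis, percent of its genes) called lower (blue), higher (red) or not called (grey) at day 1 and day 3, Mtgr1-/- against WT, with counts beside the bars as lower, higher and number of genes. tRNA synthetases have the longest blue bar at day 3 (14 of 17), and the proteins encoded in mitochondrial DNA have none.

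Neighbouring families, added after the values were seen, are set beside the members without a test of the difference. Of 75 cytosolic ribosomal protein genes, whose reads can be shared with pseudogenes, 74 were lower and 0 higher at day 1, with a median of -0.50. Beside these stand 28.9% lower and 30.0% higher of all genes tested. Of 77 nuclear genes for respiratory chain and ATP synthase subunits, 0 were lower and 34 (44.2%) higher at day 1, with a median of 0.25. A common total turned the latter to 10 lower and 2 higher, with a median of -0.07, and quantile normalization gave 8 and 10. Of all genes, 44.5% were lower and 17.4% higher on a common total. After quantile normalization the shares were 29.9% and 28.2%. The medians relative to all genes were -0.49 and 0.25 on the deposited scaling and -0.49 and 0.26 on a common total. At day 3, 66 of the 75 cytosolic genes were lower and 0 higher. Of 78 nuclear respiratory genes, 0 were then lower and 19 (24.4%) higher, beside 29.1% and 29.9% of all genes. In crypts 0 genes of either family were called, beside 3.15% lower and 1.58% higher.

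Markers of cell types differed in the same libraries. At day 1, 7 of 8 proliferation markers were lower, with summed levels of 49452 to 50380 in WT and 20868 to 29581 in the libraries labelled Mtgr1-/-, and 9 of 9 enterocyte markers were higher, at 145093 to 189906 against 416296 to 709361. All 6 secretory markers tested were lower. At day 3 the proliferation sums were 52399 to 55731 and 22629 to 33837, and 8 of 8 markers were lower. In crypts 0 of 8 proliferation markers and 0 of 9 enterocyte markers were called by limma (0 and 3 at an unadjusted p below 0.05), while 4 of 6 secretory markers were lower, with sums of 60172 to 63842 in WT and 579 to 16457 in the crypts labelled Mtgr1-/-. The part of these differences in the members' results was not tested, and in bulk RNA fewer cells of a type and less RNA per cell cannot be told apart.

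Summed over the 78 members, the share of all reads at day 1 was 0.393%, 0.425% and 0.417% in WT and 0.260%, 0.320% and 0.266% in the libraries labelled Mtgr1-/-. At day 3 it was 0.384%, 0.420% and 0.412% against 0.335%, 0.292% and 0.339%. In crypts it was 0.335%, 0.341% and 0.285% against 0.363%, 0.361% and 0.320%. Such shares are on a common total, where the median genotype difference over all genes was -0.33 at day 1 and -0.20 at day 3. On that scale the groups did not overlap in culture and overlapped in crypts. Sums on the deposited scaling were not compared.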

How the data were processed

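Per the labels and the study's methods, the authors prepared stranded poly(A) libraries, read 50 bases from one end, trimmed them with fastp 0.20.0, quantified them with Salmon 1.3.0 against GENCODE M21 (GRCm38) and divided gene counts by DESeq2 1.26.0 size factors within each time point. The deposited values are such a signal per gene and library, a normalized count. The deposited tables also hold the authors' own DESeq2 comparison (log2 fold changes, Wald statistics as a score, and p-values), which was not used. Dividing by each library's smallest step recovered whole reads in all 18 libraries (100% of values, within 0.001). In 2 of them the step is close to 1, and their values were whole multiples of it by the same procedure.

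Genotypes were compared within each table by limma 3.58.1 (R 4.3.3) with a mean-variance trend on log2(normalized count + 1), for genes with a mean of at least 10, two-sided, with Benjamini-Hochberg adjustment over all genes and a threshold of 0.05. Fold changes are on that scale. Time comparisons used all 18 libraries on a common total, with the mouse as a random effect. The scripts were tested on simulated data. Alternatives were pseudocounts of 0.1 and 8, no filter, other scalings, no trend, array weights, leaving out each library, a replicate block, edgeR 4.0.16 and DESeq2 1.42.0 on recovered reads.

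Correlations of the deviations of same-numbered libraries of the genotypes were 0.116 to 0.231 at day 1 (other numbers -0.190 to -0.0152), 0.0764 to 0.346 in crypts (-0.302 to 0.201) and -0.0156 to -0.00226 at day 3 (-0.0967 to 0.105). All were above 0.1 at day 1 alone, which was the limit for reading the numbers as pairs. The main day 1 fit did not use such pairs. With the mouse number as a block, 38 members were lower and 3 higher, beside 31.1% and 32.7% of all genes. The members and lists were chosen with earlier results of these data known. Members given in full are the 4 largest called falls and rises without overlap at each time (mean of at least 50, Mtgr1-/- against WT), the 3 largest called changes of the genotype difference, the 2 largest called time changes in each direction, the Mrps18 paralogs, the 3 highest per length and every member called against the majority. For each list, up to 3 genes with the largest called change are named. Each mouse gave 1 library per time, so p-values measure spread between mice.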

Additional observations from a re-analysis of the deposited data

Results flagged for a closer look

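The genotype difference at day 1 departed from that in crypts, by the test of the difference in all 18 libraries, for the 3 members with the largest such change. The change was -1.21 on the log2 scale for Mrpl19, -1.07 for Mrps27 and -1.06 for Mrps9. These sizes are on a common total, where all genes have a median of -0.32. On the deposited scaling, where all genes have a median of 0.02, the members called numbered 39 lower and 1 higher in place of 68 and 0. The shares of all genes were 20.04% and 19.4% in place of 34.4% and 9.40%. The cell type markers moved between the same groups, and their part was not tested.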

How the results depend on the processing

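Each group holds 3 mice, and the annotation holds pseudogenes named after Mrps36, Mrpl23 and Mrpl48. Pseudogenes under other names were not searched for. Both scaling and single libraries moved the counts. A common total gave 64 lower and 1 higher at day 1, beside 44.5% and 17.4% of all genes. At day 3 it gave 50 and 0, beside 39.8% and 21.5%. Array weights gave 1 and 1 in crypts, beside 8.61% and 7.57% of all genes. At day 3 they gave 9 higher, beside 36.0%. Median-ratio rescaling gave 24 higher and 6 lower for WT day 1 against crypts, 3 higher and 1 lower for day 3 against day 1 in the mice labelled Mtgr1-/-, 1 lower for the same step in WT, and 38 lower and 1 higher for the change of the genotype difference at day 1. Quantile normalization gave 30 and 5, 3 higher, 1 lower, and 43 and 1 for the same results. Of all genes, the shares were then 32.0% and 25.7%, 4.24% higher, 5.81% lower, and 22.6% and 17.1%. The deposited scaling gave 39 and 1 for the last, beside 20.04% and 19.4%. The cause was not tested.

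Leaving out 1 library moved the lower and higher counts within 25 to 40 and 2 to 4 at day 1, and 12 to 21 and 1 to 4 at day 3. The shares of all genes then ran from 23.8% to 30.7% and from 24.9% to 31.7% at day 1. At day 3 they ran from 22.6% to 29.6% and from 25.2% to 30.6%. For WT day 1 against crypts the ranges were 0 to 1 lower and 33 to 56 higher, for the same step in the mice labelled Mtgr1-/- 16 to 55 lower, for day 3 against day 1 in those mice 0 to 39 higher and in WT 0 to 1 higher, and for the genotype difference at day 1 against crypts 60 to 73 lower. From crypts to day 1 in the mice labelled Mtgr1-/-, the share of all genes lower ran from 14.55% to 30.27%. The higher count of 4 at day 3 fell to 1 without WT library 1 or 3 or without library 2 or 3 labelled Mtgr1-/-.

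The replicate block gave 38 lower and 3 higher at day 1, beside 31.1% and 32.7% of all genes. At day 3 it gave 20 and 4, beside 27.9% and 29.1%. With the mouse as a fixed replicate block, 66 were lower for the change of the genotype difference at day 1, beside 33.9%. Among named members, Mrps18c at day 1 turned from -0.0022 to 0.0173, 0.0047 and 0.0775 without WT library 1, WT library 3 and library 2 labelled Mtgr1-/- (range over single libraries left out -0.0497 to 0.0775), to 0.0018 with quantile normalization and to 0.0438 with array weights, and at day 3 to -0.12 on a common total. Mrps21 at day 1 turned to -0.0472 on a common total. In 43 other cases of 661 a named member lost its call and in 3 it gained one.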
